A study of Rattus norvegicus with 4 samples.

Results

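G proteins carry the signal of a cell-surface receptor into the cell, and the enzymes and adaptors described here make, break down or switch off that signal. Members were all probe sets other than controls whose single gene symbol begins with Gna, Gnb, Gng, Rgs, Adcy, Pde, Plc, Arrb or Grk, and 29 of the 1263 probe sets met this rule, for 14 of 720 named genes. They fell into 4 probe sets of alpha subunits (Gnao1 and Gnas), 6 of beta subunits (Gnb1 and Gnb2), 2 of a phospholipase C (Plcb1), 8 of phosphodiesterases of the 4 family (Pde4a, Pde4b, Pde4c and Pde4d), 3 of receptor kinases (Grk1, Grk2 and Grk3) and 6 of beta-arrestins (Arrb1 and Arrb2). In the probe table used here, 0 probe sets carried a single symbol beginning with Gng, Rgs or Adcy, so gamma subunits, regulators of G protein signalling and adenylyl cyclases are not described.

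The samples were total RNA from rat, labelled as brain, adrenal medulla, on 4 single-channel oligonucleotide arrays with 1 array per group. The groups were undigested at day 1, digested at day 1, undigested at day 7 and digested at day 7 of a time course, and signals on the arrays are given below in that order throughout. The labels do not say what was digested, how the material was kept between the days, or the strain, sex, age or number of animals. With 1 array per group there is no spread between replicates, so each difference is a size without a test, and a probe set is counted when its log2 difference is at least 1, that is 2-fold.

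In the textbook scheme a stimulated receptor loads the alpha subunit with GTP and frees it from the beta-gamma pair. The stimulatory alpha subunit Gnas activates adenylyl cyclase, which makes cyclic AMP, and Gnao1 is the abundant inhibitory-type alpha subunit of neurons and neuroendocrine cells. Plcb1 is a phospholipase that makes inositol trisphosphate and diacylglycerol, the Pde4 enzymes hydrolyse cyclic AMP, receptor kinases phosphorylate the active receptor, and beta-arrestins then bind it and end its coupling to the G protein. In chromaffin cells and neurons, these steps set how hormones and transmitters act on secretion and gene expression.

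Signals are linear and were scaled so that the arrays had the same median. Values under 51.8, the 20th percentile of all scaled values, were set to that floor before log2 was taken. Of the 29 member probe sets 25, of 12 genes, had a mean log2 signal at or above the median of all probe sets (a signal of 229) and were analysed, among 632 probe sets in all. The remaining 4 were both probe sets of Plcb1, that of Grk1 and 1 of the 2 of Pde4a. The files used here hold no detection calls, and levels of different probe sets are not comparable. A probe set ending in s_at can also read related sequences, and the at and g_at forms of 1 accession read the same sequence and are not independent.

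The arrays differed in ways that touch all the members. The 3′ to 5′ signal ratio of beta-actin was 1.42, 1.48, 2.66 and 1.35, so it was highest on the undigested day 7 array. That of GAPDH was 1.01, 1.04, 1.18 and 1.10. The median of 9 hybridisation controls was lowest on the digested day 7 array, at a log2 of -1.32 against the mean of the other arrays. Markers of chromaffin cells, with 4 of the 8 listed genes on the array (Th, Dbh, Ddc and Penk), had summed signals of 280219, 303361, 385539 and 251809. Of these sums Th alone gave 221633, 233350, 256725 and 163625. Between the days in digested samples, 3 of the 5 analysed chromaffin marker probe sets were higher at day 7 and 2 lower. For neurons, 8 of 10 listed genes were read, with sums of 293687, 322171, 208801 and 191803. The brightest of these probe sets, AB003991_g_at of Snap25, gave 96677, 102213, 56595 and 61000. For astrocytes 4 of 6 were read, with sums of 11581, 11985, 5707 and 6867, of which Glul alone gave 10684, 11317, 4680 and 6127. Markers of myelinating glia, with 4 of 7 genes read, summed to 3076, 3127, 4266 and 2956. Of the listed markers of the adrenal cortex, 0 of 7 genes had a probe set. For fibroblasts it was 0 of 4, and for macrophages and microglia 1 of 5 (Itgam), which did not pass the filter. The part of these shifts in the member values was not tested. In a bulk sample, fewer cells of a type and less RNA per cell cannot be told apart.

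**Figure D1:**
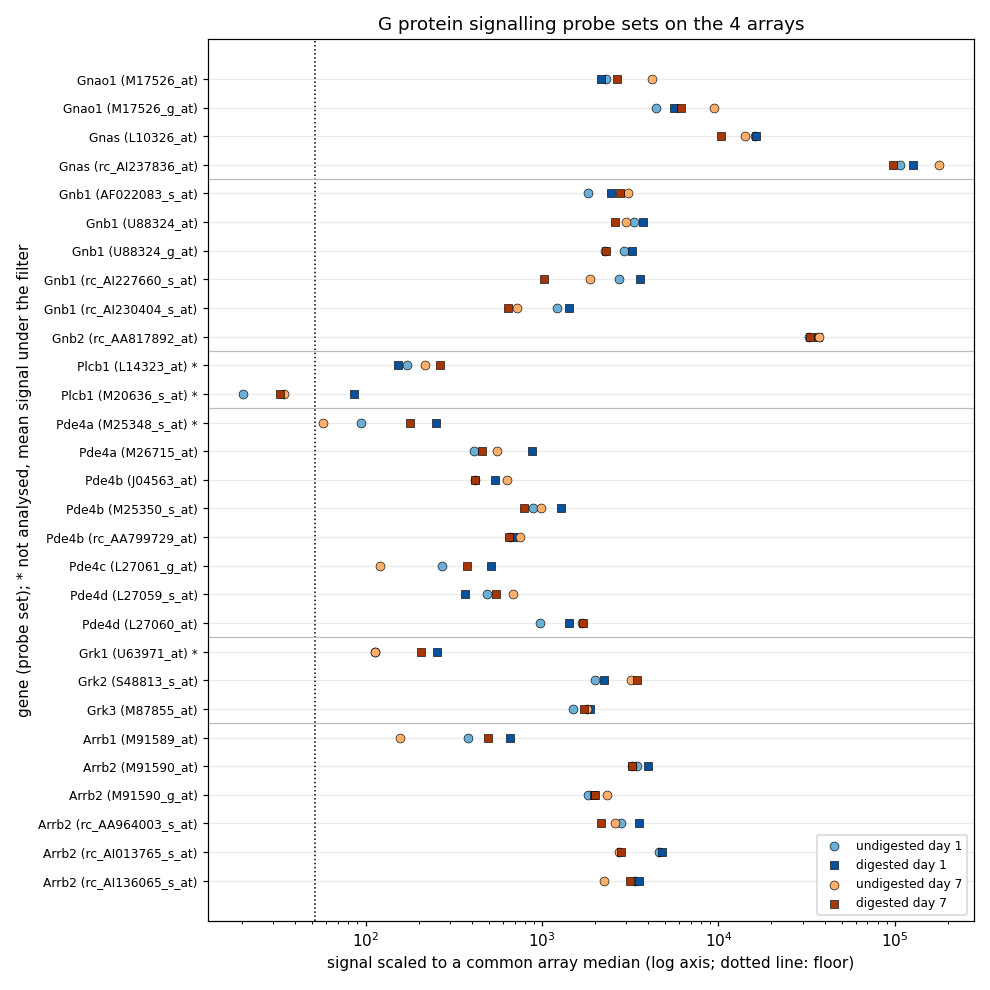
Scaled signal (log axis) of the 29 member probe sets on the 4 arrays, 1 point per array, grouped by class from alpha subunits at the top to beta-arrestins at the bottom. The dotted line is the floor of 51.8 and an asterisk marks the 4 probe sets that were not analysed; for Arrb1, Pde4c and the dim probe set of Pde4a the undigested day 7 array (light orange circle) is the lowest.

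Both alpha subunit genes had their highest signal on the undigested day 7 array by at least 1 probe set. Gnao1 read 4408, 5586, 9494 and 6164 by probe set M17526_g_at. The day 7 signal exceeded that of day 1 by 2.15-fold in the undigested samples (log2 1.11) and by 1.10-fold in the digested samples. The other probe set of Gnao1, M17526_at, which reads the same sequence, gave 2310, 2169, 4221 and 2679, with log2 day differences of 0.87 and 0.30. At day 7 both probe sets of Gnao1 were lower in the digested sample, by 1.54-fold for M17526_g_at and 1.58-fold for M17526_at. At day 1 they split, at a log2 of 0.34 and -0.09. The 2-fold call for the undigested day difference was lost in the values as deposited (log2 0.87), after quantile normalisation (0.98) and after cyclic loess (0.89), with the direction kept in each. The 5 analysed probe sets of chromaffin cell markers had a median log2 of 1.06 in the same comparison and 0.27 in the digested samples, and their part in the Gnao1 values was not tested.

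For Gnas, the probe set rc_AI237836_at read 106528, 126960, 177466 and 97568. The digested sample was 1.19-fold higher at day 1 and 1.82-fold lower at day 7 (log2 0.25 and -0.86). The other probe set, L10326_at, read 16069, 16348, 14178 and 10297, with log2 digestion differences of 0.02 and -0.46. Both probe sets of Gnas were therefore lowest on the digested day 7 array, but only rc_AI237836_at was highest on the undigested day 7 array. Over the alternative settings the day 7 digestion difference of rc_AI237836_at ran from -0.86 to -0.16, nearest to 0 after quantile normalisation.

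The 250 bases upstream of the gene start are shown for Gnao1, whose probe set M17526_g_at was the only analysed member at least 2-fold higher at day 7 in undigested or digested samples, and for Gnb1, which had the 2 member probe sets at least 2-fold lower at day 7 in digested samples. Sequences are from RefSeq on build GRCr8, which held promoters for 10 of the 14 genes (20 start sites), and the array files name no build. Capitals mark the cyclic AMP response element TGACGTCA and its core TGACG, searched on both strands, where the full element also holds the core on each strand. CREB, the factor that binds the element, is phosphorylated by the kinase that cyclic AMP activates.
Gnao1, chr19:11198438-11198687, minus strand: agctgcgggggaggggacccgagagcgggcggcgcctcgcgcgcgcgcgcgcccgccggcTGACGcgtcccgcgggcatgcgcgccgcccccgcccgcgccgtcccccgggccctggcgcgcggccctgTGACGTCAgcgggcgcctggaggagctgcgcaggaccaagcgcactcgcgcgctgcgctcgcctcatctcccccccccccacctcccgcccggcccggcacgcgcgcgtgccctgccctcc
Gnb1, chr5:171378113-171378362, plus strand: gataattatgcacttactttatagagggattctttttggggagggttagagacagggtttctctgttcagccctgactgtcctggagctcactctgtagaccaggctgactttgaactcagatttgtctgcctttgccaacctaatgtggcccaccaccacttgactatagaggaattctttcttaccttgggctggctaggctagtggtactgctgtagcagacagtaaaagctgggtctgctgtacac
The Gnao1 window held 1 full element, starting at position -121 from the gene start, and 3 matches of the core in all, while the Gnb1 window held 0 of either. Of 33360 windows of this length over all genes, the full element was in 531 (1.59%) and the core in 6080 (18.2%). Among the 20 member windows, 1 held the full element and 6 the core. The Gnao1 window was 83.6% G and C and the Gnb1 window 47.6%. A match is a description of the letters and not a measured binding site.

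Gnb1, the gene of a beta subunit that pairs with gamma subunits and acts on channels and enzymes when freed, was lower at day 7 by 4 of its 5 probe sets, and held the largest day difference of any analysed member in digested samples. Probe set rc_AI227660_s_at read 2731, 3591, 1862 and 1026. It was 3.50-fold lower at day 7 in the digested samples (log2 -1.81) and 1.47-fold lower in the undigested samples. Probe set rc_AI230404_s_at, at 1218, 1425, 725 and 641, was 2.22-fold and 1.68-fold lower in the same comparisons. Both day 7 arrays thus lay below both day 1 arrays for these 2 probe sets. The 15 analysed probe sets of neuron markers had median log2 day differences of -0.70 in digested and -0.41 in undigested samples, and their part in the Gnb1 values was not tested.

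The other probe sets of Gnb1 gave smaller or opposite differences. U88324_at read 3327, 3721, 3004 and 2580, and U88324_g_at, which reads the same sequence, 2905, 3227, 2286 and 2320. These were 1.44-fold and 1.39-fold lower at day 7 in the digested samples, again with both day 7 arrays under both day 1 arrays. AF022083_s_at went the other way, with 1821, 2450, 3064 and 2764 and log2 day differences of 0.75 in undigested and 0.17 in digested samples. Over the 5 probe sets of Gnb1 the day difference in digested samples was -0.76 ± 0.75 (mean ± SD of log2 over probe sets, which are not replicates), and in undigested samples -0.21 ± 0.58. The disagreement between probe sets of Gnb1 was larger than the SD pooled over 125 genes with several analysed probe sets, which was 0.41 in digested and 0.52 in undigested samples. Averaged to 1 value per gene, Gnb1 did not reach 2-fold.

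Gnb2, a second beta subunit gene read by 1 probe set, gave 32659, 36624, 36976 and 33257. Its largest difference was 1.13-fold, and the sign of its undigested day difference and of its day 7 digestion difference changed with the scaling.

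**Figure D2:**
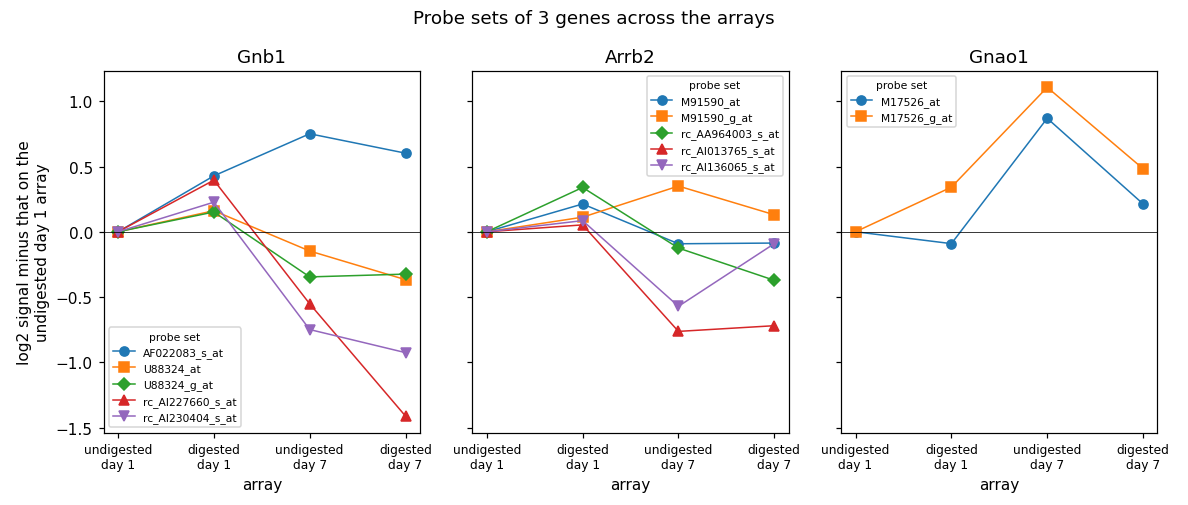
Log2 signal of each probe set of Gnb1, Arrb2 and Gnao1 minus its own value on the undigested day 1 array, for the 4 arrays (1 point per array, lines join a probe set). In Gnb1, 4 of 5 probe sets lie below 0 on both day 7 arrays while AF022083_s_at lies above, and both probe sets of Gnao1 peak on the undigested day 7 array.

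Among the phosphodiesterases, which end a cyclic AMP signal, Pde4c was the analysed gene with the largest digestion difference at day 7. Its probe set L27061_g_at read 270, 516, 120 and 376. The digested sample was 1.91-fold higher at day 1 and 3.12-fold higher at day 7 (log2 0.93 and 1.64). Between the days Pde4c was 2.24-fold lower in undigested and 1.37-fold lower in digested samples. Both digested arrays were above both undigested arrays, and the undigested day 7 array was the lowest of the 4. The undigested day difference of -1.16 moved to -0.74 with a floor at the 40th percentile, a signal of 162, and to -0.90 with an offset in place of the floor, short of 2-fold in both.

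Pde4a showed a digestion difference at day 1 by both probe sets, and at day 7 by the dim one alone. M26715_at read 410, 876, 553 and 457, so that the digested sample was 2.13-fold higher at day 1 (log2 1.09) and 1.21-fold lower at day 7. Its signal on the digested day 1 array was the highest of the 4, and the other arrays lay between 410 and 553. The 2-fold call at day 1 was lost in the values as deposited (log2 0.97) and after cyclic loess (log2 0.99). The probe set that did not pass the filter, M25348_s_at, read 94.5, 250.3, 57.4 and 178.4, so the digested signal was higher by 2.65-fold at day 1 and 3.11-fold at day 7. Its undigested signals lay under 104, 2 times the floor, so these folds are imprecise.

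Pde4b, known for its part in inflammatory signalling, gave 3 probe sets of the same sign within each comparison. J04563_at read 416, 540, 635 and 416, M25350_s_at 884, 1288, 982 and 795, and rc_AA799729_at 655, 685, 754 and 649. In the digested sample the 3 were higher at day 1, by 1.05-fold to 1.46-fold, and lower at day 7, by 1.16-fold to 1.53-fold. The day 1 sign of rc_AA799729_at changed with the scaling, as did the undigested day sign of M25350_s_at and rc_AA799729_at. None of the 3 reached 2-fold in any of the 4 comparisons.

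Pde4d was higher at day 7 by both probe sets in both digestion states. L27060_at read 973, 1424, 1694 and 1701, and L27059_s_at 490, 364, 682 and 550. The day differences were 1.74-fold and 1.39-fold in undigested and 1.19-fold and 1.51-fold in digested samples. For both probe sets each day 7 array lay above both day 1 arrays, and the sign was the same under each scaling, floor and filter tried. At day 1 the probe sets split on digestion, at a log2 of 0.55 and -0.43.

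Plcb1 was dim. L14323_at read 173, 153, 219 and 266, highest on both day 7 arrays. M20636_s_at was at the floor on 3 arrays, with scaled signals of 20.2, 86.2, 34.7 and 32.6, and no fold is given for it.

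Of the receptor kinases, Grk2 was higher at day 7 in both digestion states. This kinase phosphorylates many stimulated receptors and is recruited to the membrane by free beta-gamma subunits. Its probe set S48813_s_at read 2005, 2246, 3216 and 3471, which is 1.60-fold higher in undigested and 1.55-fold higher in digested samples (log2 0.68 and 0.63). Each day 7 array lay above both day 1 arrays. Grk3, a close relative, read 1504, 1882, 1809 and 1734, with a largest difference of 1.25-fold. Grk1, known as the kinase of rhodopsin in photoreceptors, did not pass the filter. It read 114, 255, 112 and 205, and so was higher after digestion by 2.24-fold at day 1 and 1.83-fold at day 7, with the undigested arrays nearly equal.

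The beta-arrestins, adaptors that also carry receptors into endocytosis, are encoded by Arrb1 and Arrb2. By its probe set M91589_at, Arrb1 read 381, 659, 156 and 493. The digested sample was 1.73-fold higher at day 1 and 3.16-fold higher at day 7 (log2 0.79 and 1.66). Between the days Arrb1 was 2.44-fold lower in undigested samples (log2 -1.29) and 1.34-fold lower in digested samples. Both digested arrays lay above both undigested arrays, as for Pde4c, and the undigested day 7 array was the lowest.

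Arrb2 was read by 5 analysed probe sets with 0 past 2-fold in any comparison. The probe set with the largest day difference, rc_AI013765_s_at, gave 4629, 4801, 2727 and 2811, which is 1.70-fold lower at day 7 in undigested and 1.71-fold lower in digested samples. Over the 5 probe sets of Arrb2 the log2 day difference was -0.24 ± 0.44 in undigested and -0.39 ± 0.34 in digested samples (mean ± SD over probe sets), with 4 of 5 lower in each. M91590_g_at was the exception, at 1833, 1981, 2336 and 2006, while M91590_at, of the same accession, gave 3456, 4006, 3243 and 3255. The digestion difference of Arrb2 averaged 0.16 ± 0.12 at day 1 and 0.01 ± 0.29 at day 7 over its probe sets. The day 1 sign of 3 of the 5 changed with the scaling. The day 7 log2 digestion difference of Arrb1 was 1.66, against a range of -0.25 to 0.48 over the probe sets of Arrb2, and with 1 array per group this contrast between the genes was not tested.

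**Figure D3:**
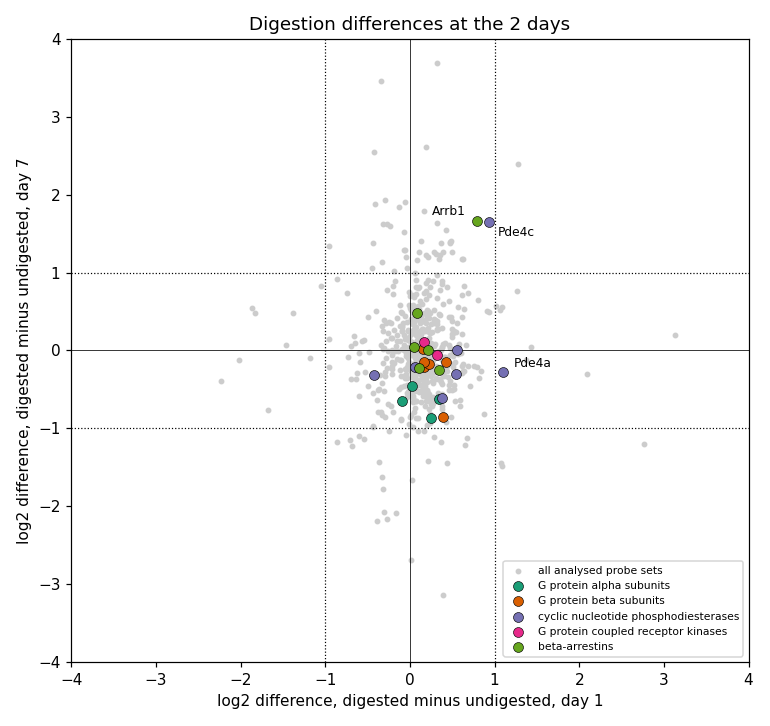
Log2 difference of digested minus undigested at day 1 (horizontal) and at day 7 (vertical) for the 632 analysed probe sets (grey) and the 25 analysed members coloured by class, with dotted lines at 2-fold. Arrb1 and Pde4c lie high on the right, at 0.79 and 1.66 and at 0.93 and 1.64, while most other members lie right of 0 and below 0.

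In the comparison of digested with undigested samples at day 1, 1 of the 25 analysed member probe sets was at least 2-fold higher (Pde4a) and 0 were lower, against 3.48% of all 632 in either direction (2.06% higher). Their median log2 difference was 0.23, against 0.12 over all analysed probe sets, and 23 of 25 were above 0, as were 71.2% of all. In the values as deposited, 18 of 25 and 48.7% of all were above 0, with medians of 0.10 and -0.01. At day 7, 2 of 25 were at least 2-fold higher (Arrb1 and Pde4c) and 0 lower, against 11.4% of all in either direction (6.96% higher). The median was -0.22, against -0.05 over all analysed probe sets, and 17 of 25 were below 0, as were 351 of 632 of all. In the values as deposited these medians were -0.07 and 0.09. By class, all 4 alpha subunit probe sets were lower after digestion at day 7, with a median of -0.64 and the same sign under each scaling, floor and filter tried. So were 5 of 6 of the beta subunits (median -0.16) and 5 of 7 of the phosphodiesterases (median -0.27), but 2 of 6 of the arrestins. Of the 6 beta subunit probe sets 5 were of Gnb1, and ran from -0.86 (rc_AI227660_s_at) to 0.02 (U88324_g_at). The signs of Gnb2 and of U88324_g_at changed with the scaling, and AF022083_s_at was at -0.005 in the values as deposited. Chromaffin cell markers were lower in the same comparison by 5 of 5 analysed probe sets (median -0.50), and markers of myelinating glia by 2 of 3 (median -0.65). Of the latter, the probe sets of Mag split. Undigested and digested day 7 signals were 542 and 669 by M22357_g_at, and 681 and 343 by X06554cds_s_at. Neuron markers were lower by 10 of 15 with a median nearer to no difference (-0.12), while astrocyte markers were higher by 3 of 4 (median 0.37). These 3 were all of Glul, and the probe set of Slc1a3 was lower, at 326 undigested and 267 digested. The part of these markers in the class values was not tested. At neither day did the share of members past 2-fold stand clear of the background. When dim probe sets were kept, 3 of the 29 members were at least 2-fold higher at day 1, against 8.79% of all 1263, and 3 at day 7, against 11.0%.

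No analysed member passed 2-fold in the same direction at both days, against 0.158% of all. At 1.5-fold, Arrb1 and Pde4c, 2 of 25, were higher after digestion on day 1 and on day 7, against 1.58% of all 632, and 0 were lower, against 0.949%. Without the filter on dim probe sets, Grk1 and M25348_s_at of Pde4a joined them, which made 4 of 29 higher, against 3.4% of all 1263, and 0 lower, against 3.64%. The undigested day 7 signals of these 4 probe sets were 156, 120, 112 and 57.4, low on an array where the floor was 51.8 and the beta-actin ratio 2.66. The part of low signal or of that array in the result was not tested. Pde4c read 270 and 120 on the undigested arrays and 516 and 376 on the digested ones. Its mean passed the filter signal of 229 through the digested arrays, so its counts as higher after digestion are not independent of the filter. In each state its day 1 signal was the higher, so its count as lower at day 7 also depends on the filter.

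**Figure D4:**
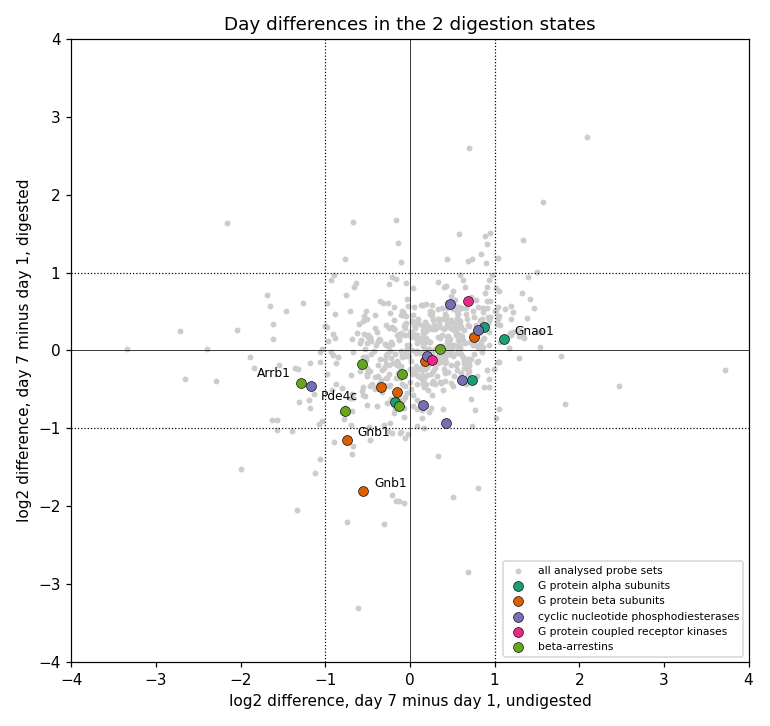
Log2 difference of day 7 minus day 1 in undigested samples (horizontal) and in digested samples (vertical) for the 632 analysed probe sets (grey) and the 25 analysed members coloured by class, with dotted lines at 2-fold. The 2 labelled probe sets of Gnb1 lie below the line at -1 in the digested samples, and Arrb1 and Pde4c lie left of -1 in the undigested samples.

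Between the days in undigested samples, 3 of 25 analysed member probe sets passed 2-fold, against 13.3% of all: Gnao1 higher (7.28% of all), and Arrb1 and Pde4c lower (6.01% of all). The median log2 difference of the members was 0.18, against 0.17 over all analysed probe sets. In the values as deposited these medians were -0.05 and -0.07. In digested samples 2 of 25 passed, both of Gnb1 and both lower, against 8.07% of all in either direction (3.32% higher and 4.75% lower). Here the members had a median of -0.37 with 18 of 25 below 0, against a median of 0.04 with 296 of 632 below 0 over all analysed probe sets. By class, 5 of 6 beta subunit probe sets were lower (median -0.50), as were 5 of 7 of the phosphodiesterases (median -0.37) and 5 of 6 of the arrestins (median -0.36), while the alpha subunits were split, with 2 of 4 lower. The median over all members stayed between -0.28 and -0.37 over the scalings, floors and filters tried. In both states, 0 members passed 2-fold in the same direction, against 1.74% of all. At 1.5-fold, Grk2 was higher in both states, against 4.75% of all, and rc_AI230404_s_at of Gnb1 and rc_AI013765_s_at of Arrb2 were lower, against 4.43%. Of the 15 analysed neuron marker probe sets, 15 were lower at day 7 in digested and 10 in undigested samples, with 5 higher in the latter, among them Syn1, Nefh and Map2. Their part in the member values was not tested.

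At 1.5-fold the counts can be set against all 632 as follows. For digestion at day 1, 3 of 25 members passed (11.6% of all), 3 higher (7.12%) and 0 lower (4.43%). At day 7 it was 7 of 25 (27.8%), 2 higher (13.6%) and 5 lower (14.2%). For the day in undigested samples it was 11 of 25 (37.2%), 7 higher (23.7%) and 4 lower (13.4%). In digested samples it was 9 of 25 (23.7%), 2 higher (10.4%) and 7 lower (13.3%).

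The change of the log2 digestion difference from day 1 to day 7 uses all 4 arrays and leaves no residual. It passed 2-fold downwards for 3 of 25 members, M26715_at of Pde4a (log2 -1.37), rc_AI227660_s_at of Gnb1 (-1.26) and rc_AI237836_at of Gnas (-1.12), and upwards for 0, against 14.4% of all in either direction (6.96% upwards and 7.44% downwards). Over the scalings, floors and filters tried it ran from -1.37 to -1.10 for Pde4a, from -1.26 to -0.98 for Gnb1 and from -1.12 to -0.35 for Gnas, so the last 2 were short of 2-fold under some. Arrb1, at 0.87, passed 2-fold upwards on the deposited scale (1.14) and with quantile-normalised signals (1.01). Under the deposited scale 1 member thus passed upwards and 1 downwards, and under quantile normalisation 1 and 2. The median over members was -0.38 with 4 of 25 above 0, against -0.18 over all analysed probe sets with 253 of 632 above 0. In the values as deposited the medians were -0.11 and 0.09. At 1.5-fold, 9 of 25 members passed (36.9% of all), 2 higher (13.9%) and 7 lower (22.9%).

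An additive limma fit of digestion and day, adjusted by Benjamini-Hochberg over all 632 probe sets, left 1 residual degree of freedom. Its error also holds whatever differs in the effect of digestion from day 1 to day 7, and borrows from the other probe sets. For digestion 0 of the 25 members passed an adjusted p of 0.05, and 0% of all did. At an unadjusted p under 0.05, 2 members passed, Pde4c (log2 1.29 ± 0.33 SE) and Arrb1 (1.22 ± 0.34 SE), against 6.65% of all, both with an adjusted p of 0.677 in limma. For day 0 members passed after adjustment, against 0.158% of all. By unadjusted limma p, 5 of 25 passed for day, against 14.4% of all: Arrb1, Pde4c, rc_AI013765_s_at of Arrb2 and both called probe sets of Gnb1, all lower at day 7. The lowest adjusted p was 0.248 in limma, for rc_AI227660_s_at (log2 -1.18 ± 0.37 SE) and rc_AI230404_s_at of Gnb1 (log2 -0.95 ± 0.31 SE).

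Genes upstream and downstream of the members were counted in the same way. Of 82 listed amine, acetylcholine, purine and peptide receptors that act through G proteins, 63 had probe sets. Only 25 of these 92 probe sets were analysed. For digestion at day 1, 0 were at least 2-fold higher and 2 lower, against 3.48% of all 632 in either direction (2.06% higher and 1.42% lower). At day 7 it was 2 and 3, against 11.4% (6.96% and 4.43%). For the undigested day difference it was 2 and 1, against 13.3% (7.28% and 6.01%). For the digested one it was 2 and 3, against 8.07% (3.32% and 4.75%). The day 1 digestion calls were Adra1d (log2 -1.38) and Bdkrb1 (-2.23), the latter on a digested day 1 signal of 84.7, under 104 and so imprecise. The day 7 digestion calls were Gabbr1 (log2 1.52), Gabbr2 (-2.19), Chrm1 (-1.45), Drd4 (1.28) and Htr1d (-2.07), receptors for GABA, acetylcholine, dopamine and serotonin, each by 1 probe set. The other probe set of Gabbr2 gave -0.24 and the other 4 of Gabbr1 gave 0.38 to 0.80. The Gabbr2 and Htr1d folds rest on digested day 7 signals of 75.1 and 85.5, under 104, and are imprecise. Of 65 listed targets of cyclic AMP, diacylglycerol and calcium, 22 had probe sets, and 16 of these 42 probe sets were analysed. Against the shares of all 632 given above, 0 were higher and 1 lower for digestion at each day. It was 0 and 0 for the undigested day difference and 1 and 1 for the digested one. The called ones were all probe sets of Camk2d or Camk4, calcium-dependent kinases. The digestion calls were different probe sets of Camk2d, rc_AA925495_at at day 1 (log2 -1.68) and rc_AI009268_at at day 7 (-1.12). The other analysed probe sets of Camk2d gave -0.03 to 0.29 at day 1 and -0.76 to -0.06 at day 7. Prkar2a, a regulatory subunit of the cyclic AMP-dependent kinase, read 410, 659, 665 and 576. Crem, a repressor or activator at cyclic AMP response elements, read 5254, 5728, 6135 and 7032. Creb1, the gene of CREB, read 787, 803, 742 and 1104. The log2 differences of these 3 probe sets lay between -0.21 and 0.70 in the 4 comparisons, short of 2-fold.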

How the data were processed

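Intensity values, linear signals per probe set, were used as deposited by the authors, in a table of 4 arrays; the software and scaling that made them are not given in the sources used here. The platform's probe table gave the symbols, and all 29 member symbols were the same in a current RefSeq gene table looked up by gene identifier. The 59 control probe sets were left out. Arrays were scaled to a common median over the other probe sets, with factors of 0.925, 1.01, 1.09 and 0.984, floored at the 20th percentile (51.8) and log2-transformed. The analysed probe sets had a mean at or above the median. Values are given for each analysed member; the rule named those past 2-fold in a comparison, at 1.5-fold in both of a pair that shares no array, and others by size up to 20 genes, which took in all 25. Members and lists were chosen with earlier results of these data known. Limma 3.58.1 in R 4.3.3, Python 3.11.15, numpy 2.4.6, pandas 2.3.3 and matplotlib 3.10.9 were used. The fold count at both days and the additive fit were tried on simulated log2 values with the same digestion effect at both days. The scaling, floor and filter were not tried in this way. The alternatives were values as deposited, quantile normalisation, cyclic loess, the floor value added to every signal instead of flooring, flooring at the 40th percentile, no filter, 1.5-fold and 1 value per gene. The number of arrays limits the precision.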

Additional observations from a re-analysis of the deposited data

Results flagged for a closer look

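In 3 member probe sets the digested sample was higher than the undigested one at day 1 and lower at day 7, with a change between the days of at least 2-fold. The day 7 minus day 1 value of the log2 digestion difference was -1.37 for M26715_at of Pde4a, -1.26 for rc_AI227660_s_at of Gnb1 and -1.12 for rc_AI237836_at of Gnas. The change was not tested, since it uses all 4 arrays. Of all analysed probe sets 14.4% passed 2-fold in this measure in either direction, and 7.44% downwards. These shares set no condition on the sign of the difference at each day. The other probe set of Pde4a, which was dim and not analysed, gave 0.23, with the digested sample higher at both days. The other probe set of Gnas gave -0.49, and the other 4 of Gnb1 lay between -0.58 and -0.13. Over the scalings, floors and filters tried, the value of Gnas rc_AI237836_at reached -0.35, after quantile normalisation. That of Gnb1 rc_AI227660_s_at reached -0.98, in the values as deposited, while M26715_at of Pde4a stayed past 2-fold.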

How the results depend on the processing

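No paired analysis was possible because each group held 1 array, so that no replicate number could serve as a block, while the additive fit compares digestion within each day. Counts of members past 2-fold kept within 1.5 times their value except as follows. For digestion at day 1, the count of 1 became 0 in the values as deposited, 0 after cyclic loess, and 3 without the filter; for digestion in the same direction at both days, it became 1 without the filter (0 otherwise). With 1 value per gene the digested day count was 0 and that of the change between days 1. At 1.5-fold the counts were 3 and 7 for digestion at day 1 and day 7, 11 and 9 for the day in undigested and digested samples, 9 for the change, and 2 and 3 for the same direction in both days and both states. Limma's additive fit called 1 member for day after cyclic loess, rc_AI227660_s_at of Gnb1 (adjusted p 0.0413; 0.0533 to 0.447 was the range of the lowest adjusted p of a member over the other settings); over all probe sets day called 1, against 20 after cyclic loess, 17 with the floor at the 40th percentile and 3 with the offset, and digestion 0, against 4 after cyclic loess. After cyclic loess the fit gave each analysed member the same SE, 0.399, so it held no error particular to a probe set. The causes of these changes in the calls were not tested. No called difference of a member changed sign, but the change between days, 0 higher and 3 lower, became 1 and 1 on the deposited scale and 1 and 2 with quantile-normalised signals. Scaling moved the median of all analysed probe sets by over 0.1, in the values as deposited from 0.12 to -0.01 and from -0.05 to 0.09 for digestion at day 1 and day 7, from 0.17 to -0.07 for the undigested day difference and from -0.18 to 0.09 for the change between days.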
